A study of Mus musculus with 94 samples.

Results

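Spleens of mice that carry a mutation in Hmgn3 were compared with spleens of wild-type mice of the same line. The comparison used 8 of the 94 arrays of the series, chosen by their titles and mouse numbers: 4 arrays of labelled mutants and 4 of wild types, each from a separate mouse. All 8 mice were C57BL/6N males aged 17 weeks, and the series describes the mutants as homozygous. The allele, the cells in which it acts and the kinship of mutants and wild types are not given in the sources used here. The series also profiled brain, liver and thymus, and mice of lines with a mutation in Hmgn1 or Hmgn5. Spleens of those lines, 16 further arrays from other mice of the same strain, sex and age, and the other tissues of the same 8 mice served as points of comparison.

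HMGN3 belongs to the high mobility group N family, small nuclear proteins that bind nucleosomes, compete with linker histone H1 and are associated with open chromatin. Work on HMGN3 elsewhere has centred on endocrine pancreas, eye and brain, where it has been linked to genes such as Slc6a9 (the glycine transporter GLYT1) and Slc2a2 (the glucose transporter GLUT2). The spleen combines B and T cell areas with a red pulp in which macrophages clear old red cells, held by a stroma of fibroblasts and smooth muscle.

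Values are the deposited normalized intensities, a probe brightness in arbitrary units, given per array or as mean ± SD over 4 mice. Changes are differences of group means of log2(intensity + 16), taken as labelled mutants less wild types, with a standard error (SE) from the spread over all 24 spleen arrays. Adding 16 makes changes of dim probes look smaller than they are. A probe passed when its adjusted p from limma, over 18519 probes above noise in spleen, was under 0.05. The 8 arrays had 13350 to 13366 of 25697 probes above noise, and the number of arrays limited the precision. They carried the markers of spleen: Cd79a and Cd79b of the B cell receptor averaged 916 and 1110 in wild types, Cd3d of the T cell receptor complex 634, and Spic and Vcam1 of red pulp macrophages 320 and 1150. Single arrays also differed in RNA of tissues that lie beside the spleen or are not part of it. The summed intensity of pancreatic acinar genes was 8250 in mutant 2 against 71.1 to 1110 on the other arrays, and that of hepatocyte genes was 1400 in wild type 4 against 28.5 to 136. Whole spleens were measured, so fewer cells of a type and less RNA per cell cannot be told apart.

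Hmgn3 itself fell in the labelled mutants on both of its probes. Probe ILMN_2644719 read 467, 377, 416 and 359 in wild types 1 to 4 and 107, 105, 108 and 105 in mutants 1 to 4. The groups were far apart, and the mutants differed from each other by only a few units. The means were 405 ± 47.6 and 106 ± 1.79 (SD, n = 4 each), which left 26.2% of the wild-type signal, a change of -1.78 (SE 0.11, adjusted p = 3.09e-10). Probe ILMN_1247704 read 442, 318, 416 and 402 in wild types and 102, 95.9, 112 and 132 in mutants. Again every mutant lay below every wild type, with 28% of the signal left and a change of -1.70 (SE 0.12, adjusted p = 3.43e-09). In a two-sided exact permutation test over the 8 arrays each probe gave p = 0.0286, the smallest that the 70 relabellings allow. Where the probes lie relative to the mutation is not given, so the remaining signal does not say how much Hmgn3 transcript the mutants still made.

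**Figure D1:**
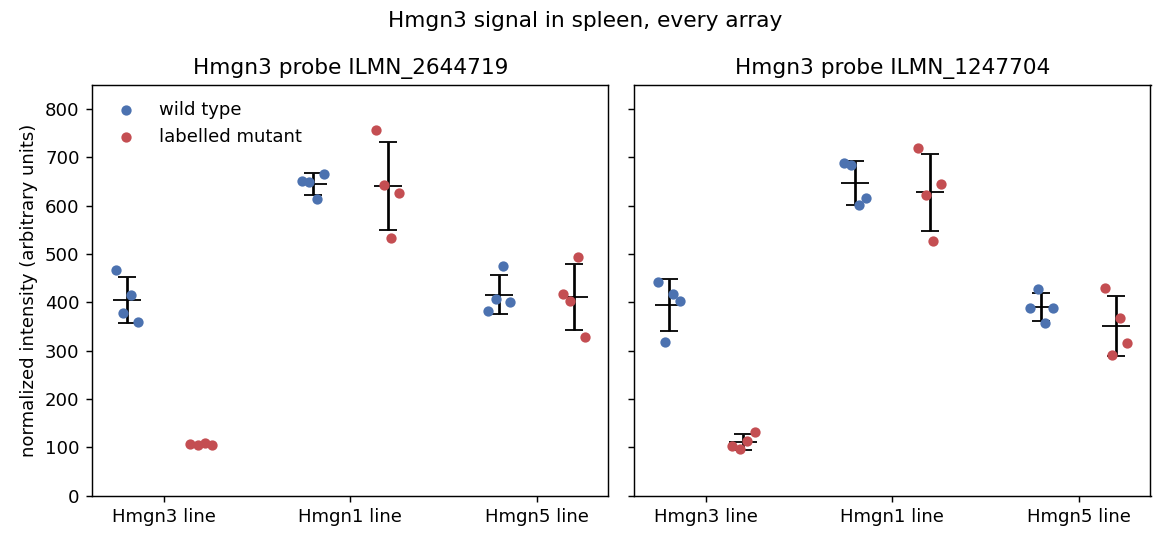
Normalized intensity (arbitrary units) of both Hmgn3 probes on every spleen array of the 3 lines, with points for single mice, horizontal marks for group means and bars for the SD of 4 mice. The 4 labelled mutants of the Hmgn3 line sit at 95.9 to 132 over both probes, below all wild types of the line, while mutants and wild types overlap in the Hmgn1 and Hmgn5 lines; the lines were normalized separately, so levels are compared only within each.

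The Hmgn3 change was particular to the Hmgn3 line among the 3 lines. It was -0.02 and -0.03 in the Hmgn1 and Hmgn5 lines on probe ILMN_2644719, and -0.05 and -0.16 on probe ILMN_1247704. The difference between the Hmgn3 line and the Hmgn1 line was -1.76 (SE 0.15, adjusted p = 6.68e-07) and -1.65 (SE 0.17, adjusted p = 8.00e-06) on these probes in turn. Against the Hmgn5 line it was -1.75 (adjusted p = 7.33e-07) and -1.54 (adjusted p = 2.98e-05). Among the other tissues of the same mice, the signal left on probe ILMN_2644719 was 32.7% in thymus (adjusted p = 2.00e-08) and 67.7% in brain (adjusted p = 0.00442). In liver the probe was dim, at 14.2 ± 5.8 in wild types and above noise on 1 of 4 mutant arrays, and its change did not pass (adjusted p = 0.718).

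No other HMGN gene passed. Hmgn1 averaged 739 ± 159 in wild types and 643 ± 70.9 in mutants (change -0.18, adjusted p = 0.663). Hmgn2 averaged 1080 ± 35.5 and 938 ± 180 (change -0.22, adjusted p = 0.552). Hmgn5 averaged 29.2 ± 4.68 and 23.7 ± 6.14 (change -0.19, adjusted p = 0.637). Of 3 tested genes that work elsewhere has linked to HMGN3, and of 3 tested HMGB, HMGA and linker histone genes, 0 passed. Hmgn3 lies at chr9:83109942-83147358 (GRCm38.p6), and 27 probes of 21 genes within 5 Mb of it were tested. Of these 0 passed in limma, against 2.11% of all probes, and their median change was 0.04. The smallest p was that of Lca5, a ciliary protein gene (change -0.32, adjusted p = 0.258), whose other probes were at 0.09 and -0.06. Most of the 27 probes were dim. At a share of 2.11%, counts of 0 among so few probes or genes say little about them.

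Across the whole array 391 of 18519 probes passed (2.11%), 154 of them higher in the labelled mutants (0.832%) and 237 lower (1.28%). They came from 347 named genes and 24 probes without a gene name. Most changes were modest: the median size among the 391 was 0.56 on the log2 scale (median SE 0.13) and 22 exceeded 1. The mutant and wild-type arrays did not overlap on 330 of the 391, against 1439 of all probes (7.77%). The count hung on single arrays. Without wild type 1 it was 8, without wild type 2 39, without wild type 3 172, without mutant 3 10 and without mutant 4 74, whereas without mutant 1 it was 717. With the spread taken from these 8 arrays alone 5 probes passed (0.027%), and 2703 had an unadjusted p under 0.05, against 2823 with all 24 arrays.

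**Figure D2:**
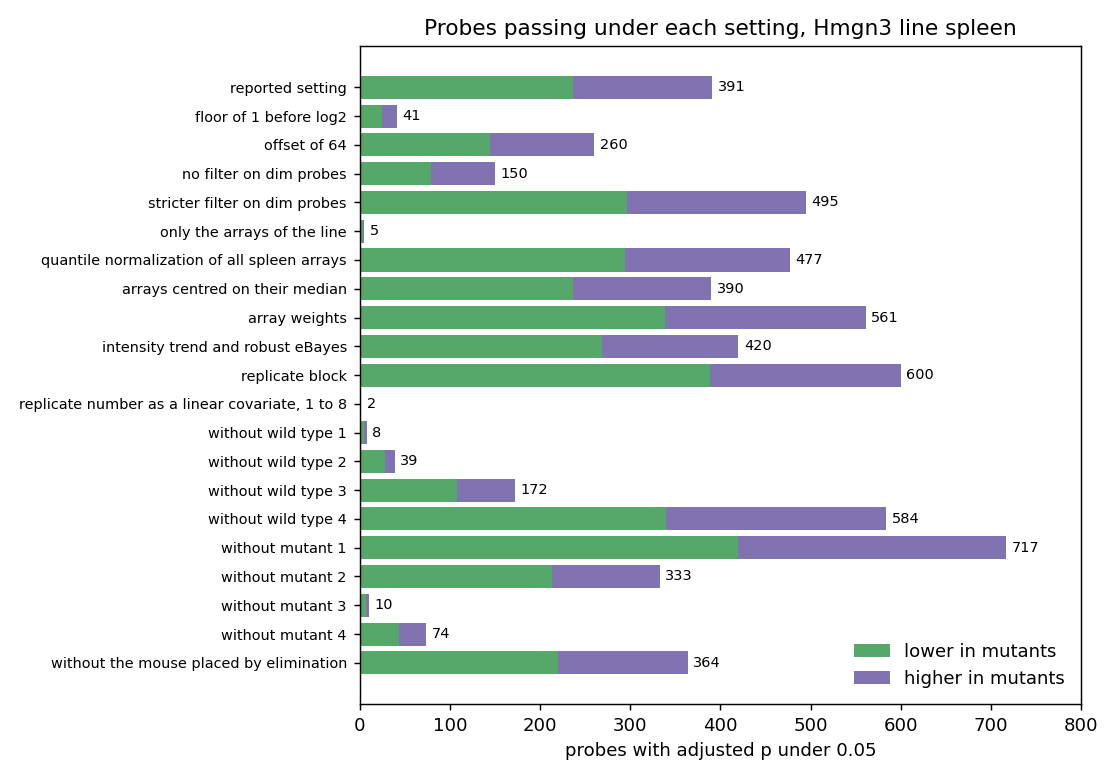
Number of probes with an adjusted p under 0.05 in the Hmgn3 line spleen under the reported setting and each alternative, with bars split into probes lower and higher in labelled mutants. The count ran from 2, with the arrays numbered 1 to 8 as a covariate, to 717, without mutant 1, and was 391 as reported.

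Both Hmgn3 probes passed under each of the 20 alternatives. The probes that passed with each of the 8 arrays left out in turn were 7: both Hmgn3 probes, Ppp1cb, Anxa6, Sv2a, the histone gene H2bc9 and the unnamed ILMN_3129372. Ppp1cb encodes a catalytic subunit of protein phosphatase 1. Its probe ILMN_2647628 read 77.5, 69.5, 64.3 and 57.8 in wild types and 23.6, 24, 15.9 and 25.6 in mutants, a change of -1.12 (SE 0.17, adjusted p = 0.00416). The lowest wild type was above 2 times the highest mutant, and a second Ppp1cb probe fell as well (-0.77, adjusted p = 0.0292). Cib1, a calcium- and integrin-binding protein gene, read 237, 187, 230 and 259 in wild types and 397, 403, 418 and 403 in mutants, a rise of 0.79 (SE 0.16, adjusted p = 0.0168). Ppp1cb, Cib1 and the Hmgn3 probes were also those of the 391 that passed with the 8 arrays alone, at adjusted p = 0.0101 for Ppp1cb and 0.0466 for Cib1. Anxa6, which encodes the membrane-binding annexin A6, read 622, 623, 626 and 573 in wild types and 860, 897, 1098 and 896 in mutants, a rise of 0.60 (adjusted p = 0.00518). Sv2a, a vesicle glycoprotein gene known from synapses, was dim and rose from 7.93 ± 1.74 to 21.0 ± 5.43 (0.62, adjusted p = 0.0122).

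The largest falls after Hmgn3 were those of an adaptor, an RNA helicase and a migration gene. Stap1, an adaptor of B cell receptor and kinase signalling, read 261, 231, 214 and 132 in wild types and 114, 84.9, 33.3 and 52 in mutants, a change of -1.43 (SE 0.28, adjusted p = 0.0168). Ddx5, an RNA helicase of splicing and transcription, read 113, 115, 86 and 66.7 in wild types and 48.4, 39.2, 4.45 and 25.5 in mutants, a change of -1.39 (adjusted p = 0.0122). In both, the groups did not overlap, mutant 3 was the lowest array and mutant 1 lay nearest to the wild types. Elmo1, which works with DOCK proteins to activate Rac in engulfment and migration, read 57.9, 46.2, 40.8 and 47.2 in wild types and 18.7, 19.9, 3.7 and 1.25 in mutants, a change of -1.32 (adjusted p = 0.0142). Eef2, the factor that moves the ribosome along the message, read 770, 667, 482 and 560 in wild types and 523, 357, 59 and 252 in mutants, a change of -1.31 (SE 0.35, adjusted p = 0.0478). Here the groups overlapped, wild type 3 lying below mutant 1. Snx2, a sorting nexin of endosomes, fell by 1.23 (adjusted p = 0.0115). Ctps2, a CTP synthase gene, fell by 1.14 (adjusted p = 0.0115). Hnrnpk, a binding protein of messenger RNA precursors, fell by 1.06 (adjusted p = 0.0265).

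The largest rises, with a median of 0.50 over all 154 rises, were smaller than the largest falls, with a median of -0.61 over all 237 falls. Tsc22d3 encodes the glucocorticoid-induced leucine zipper. It read 294, 198, 496 and 446 in wild types and 731, 584, 569 and 728 in mutants, a rise of 0.91 (SE 0.23, adjusted p = 0.0384). Wild types 1 and 2 were well below wild types 3 and 4, yet no mutant overlapped them. Fscn1, the actin-bundling protein fascin of dendritic and endothelial cells, read 41.1, 54.6, 76.2 and 86 in wild types and 103, 107, 174 and 131 in mutants (0.86, adjusted p = 0.0463). Ltbp4, a matrix protein gene that binds latent TGF-beta, read 219, 210, 176 and 205 in wild types and 270, 361, 377 and 366 in mutants (0.71, adjusted p = 0.0165). Mutant 1 stood below the other 3 mutants in Ltbp4 and was again nearest to the wild types. Golga2, a Golgi matrix gene, rose by 0.82 (adjusted p = 0.0212) and Helz, an RNA helicase gene, by 0.75 (adjusted p = 0.0177). Atp9b, a putative phospholipid flippase gene, rose by 0.70 (adjusted p = 0.0435), its highest wild type reading 143 and its lowest mutant 164.

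**Figure D3:**
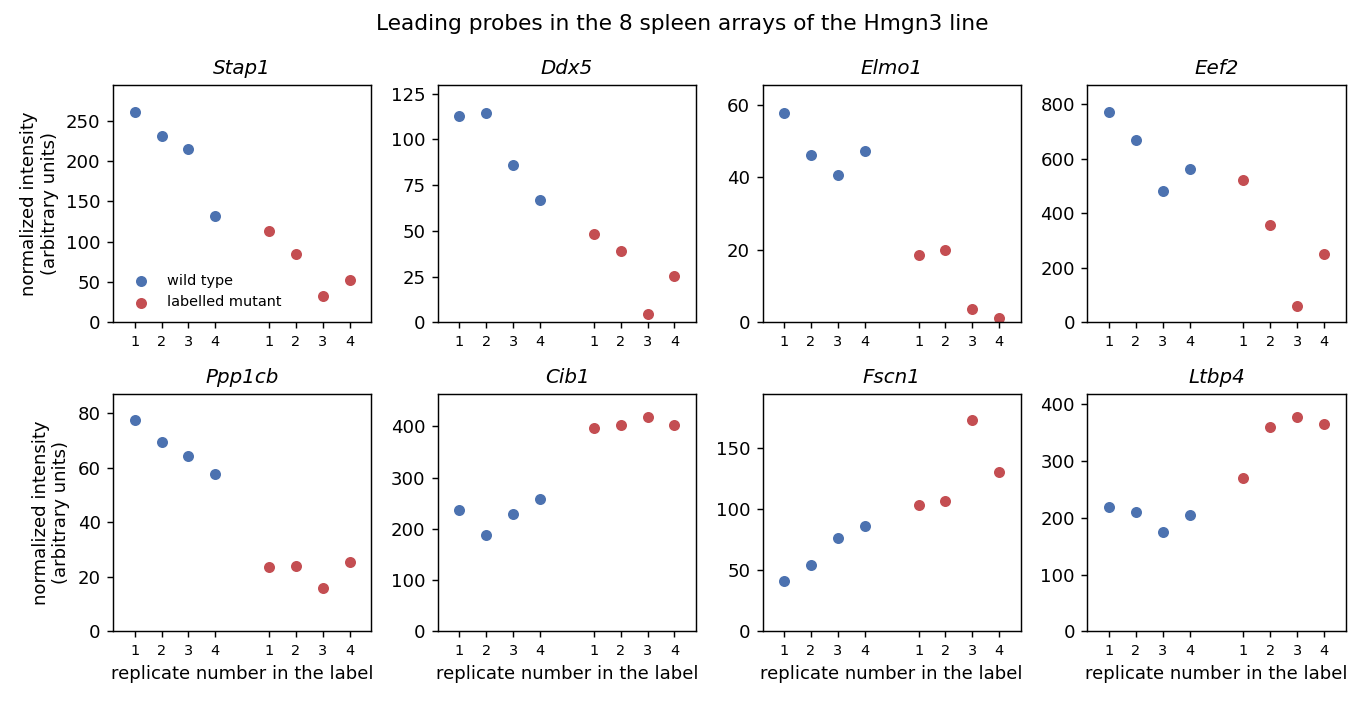
Normalized intensity (arbitrary units, axes from 0) of 8 leading probes on each of the 8 spleen arrays of the Hmgn3 line, plotted by the replicate number of the labels, wild types left and labelled mutants right. Stap1, Ddx5, Elmo1, Eef2 and Ppp1cb are lower and Cib1, Fscn1 and Ltbp4 higher in mutants; in Stap1 the wild types step down from 261 to 132, while in Ppp1cb and Cib1 the mutants stay close together.

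RNA-binding and translation genes held several of the falls. The gene lists here and below were chosen with earlier results of these data known, so a count within a list is no test of it. Counted with 1 probe per gene, the brightest, 257 of 12581 genes passed (2.04%), 115 higher (0.914%) and 142 lower (1.13%), and the median change of all genes was 0.02. List counts here and below used the same probes, so a gene that passed only on a dimmer probe was not counted. Among 20 RNA helicase and hnRNP genes 5 fell and 0 rose. Hnrnpa2b1 went from 484 ± 70.1 to 246 ± 108 (-1.04, adjusted p = 0.0304) and Hnrnph1 from 435 ± 30.7 to 268 ± 59.3 (-0.69, adjusted p = 0.0238). Dhx15, a helicase that releases the spliceosome, went from 328 ± 83.5 to 211 ± 35.5 (-0.58, adjusted p = 0.0399), and the remaining members that fell were Ddx5 and Hnrnpk. Wild type 4 lay below mutant 1 in Dhx15. The other 15 genes did not pass on their brightest probes, and the median of the 20 was -0.07. Ddx39b among them passed lower on a dimmer probe (-0.74). Among 18 translation factor genes Eef2 and Eif3a, a scaffold subunit of the initiation complex, fell (Eif3a from 104 ± 10.1 to 69.0 ± 16, -0.51, adjusted p = 0.0404), with a median of -0.10. On dimmer probes that were not counted, Eif5 and Pabpc1 of this list passed lower (-0.82 and -0.86). Of 14 SR splicing factor genes and kinases 0 passed on the brightest probe, while Srsf5 and Clk4 passed lower on dimmer probes (-0.98 and -0.68). Of 17 cytosolic ribosomal protein genes, 20 proteasome genes, 21 oxidative phosphorylation genes and 13 heat shock chaperone genes, 0 passed. Of 21 actin cytoskeleton genes Fscn1 rose on its brightest probe, with a list median of 0.05. On dimmer probes, Arpc5 and Coro1a of this list passed lower (-0.97 and -0.68), and Actb passed in both directions. Of 17 sorting nexin and retromer genes Snx10 fell on its brightest probe, from 113 ± 20.7 to 79.7 ± 5.43 (-0.42, adjusted p = 0.0466), with a list median of -0.08. Snx2, also on this list, passed lower on dimmer probes that were not counted (-1.23 on ILMN_1254113).

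Genes of lymphoid organisation and antigen display moved in both directions. Cxcl13, the chemokine with which follicular stroma attracts B cells, read 446, 391, 380 and 337 in wild types and 264, 198, 202 and 151 in mutants, a fall of 0.90 (SE 0.24, adjusted p = 0.0498). Gpr183, the oxysterol receptor that positions B cells and dendritic cells, went from 198 ± 31.4 to 126 ± 19.2 (-0.59, adjusted p = 0.0266). These were the 2 of 11 chemokine and homing genes that passed, and neither gene's groups overlapped. H2-Ab1, the beta chain of a class II molecule, read 7067, 6487, 6429 and 6943 in wild types and 8434, 9535, 9492 and 8587 in mutants, a rise of 0.42 on probe ILMN_1226525 (SE 0.09, adjusted p = 0.0212). Another H2-Ab1 probe, ILMN_2631423, was lower in mutants and did not pass (-0.46, adjusted p = 0.163). Tap2, a subunit of the transporter that loads class I molecules with peptide, went from 157 ± 52.3 to 275 ± 39.5 (0.79, adjusted p = 0.0215). The other 14 of 16 antigen presentation genes did not pass, and the median of the list was 0.06. Of 14 interferon-stimulated, 18 immediate early and 14 circadian clock genes 0 passed on the brightest probe. Of 13 glucocorticoid-induced genes only Tsc22d3 did, with a list median of 0.13. Per1, on both the clock and glucocorticoid lists, passed higher on a dimmer probe (0.38).

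Markers of the main lymphocytes gave 1 call. Of 11 B cell genes 0 passed, and the summed intensity of the list was 7240 to 8320 in wild types and 6900 to 7380 in mutants. Of 14 T cell genes Cd4, the coreceptor of helper T cells, rose. It was dim, at 1.67, 7.87, 11.7 and 9.95 in wild types and 17, 40.9, 27.4 and 21.6 in mutants (0.84, adjusted p = 0.0238), and wild type 1 was below noise. The summed T cell list overlapped between groups, at 3950 to 5200 and 4290 to 5160. Stap1 was the single member of 17 B cell receptor signalling genes to pass on its brightest probe, and the list median was 0.08. Lat2 of this list passed higher on a dimmer probe (0.42). Plasma cell, natural killer cell and dendritic cell markers gave 0 calls.

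Macrophage genes split. Marco, a scavenger receptor of marginal zone macrophages, read 5.34, 5.29, 5.55 and 5.08 in wild types and 13.2, 17.6, 13.5 and 18.8 in mutants, a rise of 0.57 (adjusted p = 0.0212). All arrays were above noise and the wild types were almost equal. Lyz2, the lysozyme of macrophages and neutrophils, read 4463, 3258, 2756 and 2229 in wild types and 2097, 1813, 1200 and 1119 in mutants, a fall of 1.02 (SE 0.26, adjusted p = 0.0384). Its arrays stepped down with the replicate number in both groups. The other 11 macrophage genes did not pass, the median of the 13 was 0.21, and their summed intensity was 6180 to 9790 in wild types and 5930 to 6820 in mutants. Of 11 neutrophil genes 0 passed while 10 were lower (median -0.18), with summed intensities of 1080, 4460, 2380 and 1230 in wild types and 1580 to 1760 in mutants. Of 10 erythroid genes 0 passed and 9 were lower, with a median of -0.26.

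Stromal markers gave 2 rises on the brightest probe of each gene. Pdgfrb, the receptor of pericytes and fibroblasts, went from 12.6 ± 4.46 to 31.5 ± 9.52 (0.72, adjusted p = 0.0307). Col6a2, a collagen VI chain, went from 19.4 ± 5.42 to 37.5 ± 10.4 (0.58, adjusted p = 0.0437), with wild type 2 above mutant 1. These were 2 of 12 fibroblast genes, whose median was 0.08. Fbln1 of this list passed higher on a dimmer probe (0.50), while its brightest, ILMN_2870672, was at -0.007. Of 8 smooth muscle genes 0 passed and 7 were higher, with a median of 0.38 (-0.052 with the arrays numbered 1 to 8 as a covariate) and summed intensities of 4040 to 5050 in wild types and 4860 to 6290 in mutants. The 5 mesothelial genes, which mark the outer lining of the organ, were all higher at a median of 0.35, and the 4 tested fat cell genes at a median of 0.40, with 0 passing in either list. The summed mesothelial signal was 114 to 163 in wild types and 152, 234, 246 and 259 in mutants, with mutant 1 among the wild types. These lists were higher in mutants of the Hmgn1 and Hmgn5 lines too. Their medians there were 0.25 and 0.45 for fibroblast genes and 0.27 and 0.29 for smooth muscle genes. Mesothelial genes were at 0.45 and 0.47 and fat cell genes at 0.31 and 0.64. The part of capsule or attached tissue in the stromal rises was not tested.

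Histone genes, which were looked at after their values had been seen and so carry no test as a group, were mostly lower. Of 48 probes for 46 histone genes 6 fell, against 1.28% of all probes, 0 rose and 39 lay below 0, with a median of -0.16. The median was 0.038 when the arrays were numbered 1 to 8 as a covariate. Mutant 3 stood low in some of them, as in H2ac7 at 116 against 300 to 723 on the other 7 arrays. H2bc9, a histone H2B gene, read 84.4, 97.5, 80.5 and 78 in wild types and 47.2, 52.3, 37.3 and 40.8 in mutants, a fall of 0.75 (SE 0.12, adjusted p = 0.00416). H4c8 fell by 0.67 (adjusted p = 0.0212), and H3c14, H2bc7, H3c6 and H2bc4 by 0.55 to 0.58. Histone genes of this kind are transcribed in the S phase of dividing cells. Of 18 cell cycle genes 0 passed, 14 were lower and the median was -0.11. In the Hmgn1 and Hmgn5 lines the medians of the same histone probes were -0.03 in each. Of the 6 that fell here, H2bc9 was at -0.29 and -0.25 and H2bc7 at -0.37 and -0.38 in those lines. H3c6 was at -0.21 and -0.05, H3c14 at -0.11 and -0.06, H4c8 at -0.08 and -0.09, and H2bc4 at 0.175 and -0.29. None of these passed there, and no histone probe passed for a difference between lines.

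Probes of the same gene often disagreed. Beta-actin (Actb) had 5 tested probes: ILMN_2617433 fell by 1.11 (adjusted p = 0.0498), while ILMN_2588055 rose by 1.05 (adjusted p = 0.0389) and ILMN_1377923 by 0.57 (adjusted p = 0.0463). The falling probe read 1421, 1204, 1143 and 977 in wild types and 1004, 732, 186 and 595 in mutants, and the rising ILMN_2588055 read 8.41, 19.7, 14.5 and 23.3 and then 26.6, 36.3, 78.5 and 74.9. The Actb probe of highest signal, ILMN_2698799, did not pass (0.27, adjusted p = 0.146), so these data give no single direction for Actb. Snx2 fell by 1.23 on 2 probes, but its brightest probe, ILMN_2783010, changed by -0.05 (adjusted p = 0.884). Elmo1 fell on 4 of its 13 tested probes, and its brightest, ILMN_2658407, did not pass. Golga2 rose on its dim probe ILMN_3137432, and its brightest, ILMN_1231420, changed by 0.04 (adjusted p = 0.970). H2-Ab1 had 3 probes at 0.37 to 0.42, of which 1 passed, and another bright probe, ILMN_2631423, that went from 5420 to 4019 (-0.46, adjusted p = 0.163) and was at -0.70 and -0.55 in the Hmgn1 and Hmgn5 lines. Of 136 genes that fell and had several tested probes, 65 had a brighter probe than the one that led. The leading probes had a median change of -0.67 at a median wild-type intensity of 42, and the brighter probes -0.09 at 233, with 4 of the 65 passing. Of 65 genes that rose, 29 had a brighter probe, with median changes of 0.49 and 0.13 and 1 of the 29 passing. The leading probe was chosen for passing and the brighter one was not. Over all further probes of genes that passed, 254 of 365 went the same way (69.6%), against 56.9% over all genes with several probes.

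The arrays also differed along the replicate number of the labels. On the first principal component of the 8 arrays, which held 30.1% of the variance, wild types 1 to 4 stood at -18, -15.9, -11.6 and -5.91 and mutants 1 to 4 at -1.54, 7.08, 28.5 and 17.5. Over the 237 probes that fell, the median difference from the wild-type mean was 0.14, 0.06, -0.04 and -0.17 in wild types 1 to 4. It was -0.42, -0.52, -0.79 and -0.73 in mutants 1 to 4. Within wild types alone 207 of the 237 had a negative slope on the number, and within mutants alone 210. Of the 154 that rose, 109 had a positive slope within wild types and 119 within mutants. Over all 18519 probes the slope was negative for 51.4% within wild types and 49.4% within mutants. Tested on its own beside genotype, the slope passed on 0 probes in limma, with 1606 at an unadjusted p under 0.05 (8.67%), and Lyz2 had the smallest p (slope -0.33 per number, adjusted p = 0.293).

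**Figure D4:**
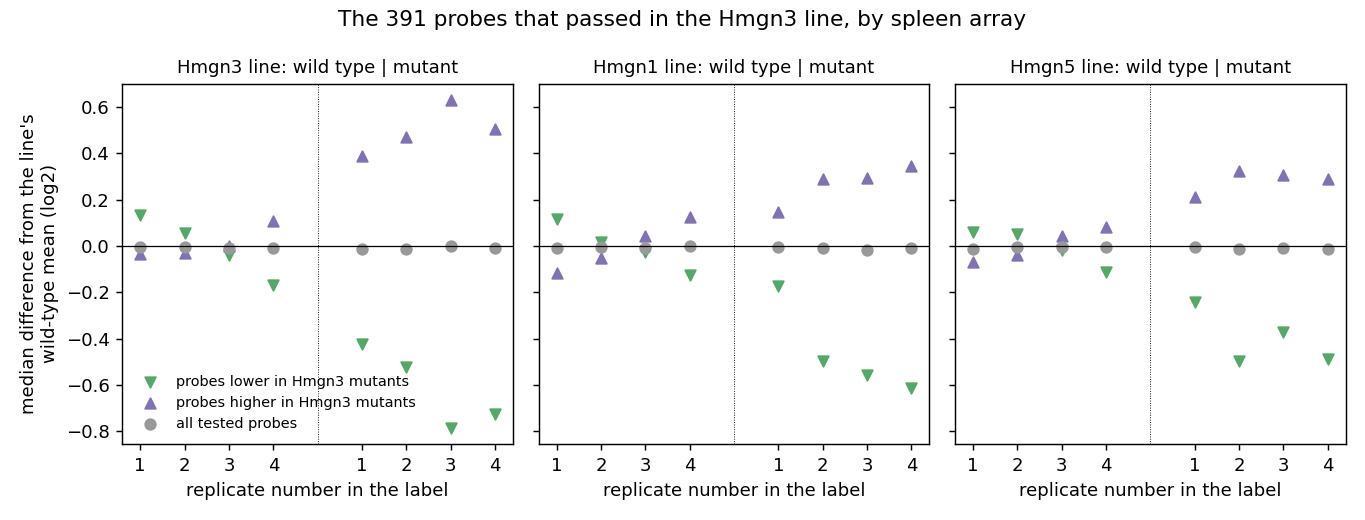
Median difference from the wild-type mean of the same line (log2) over the 237 probes lower and the 154 higher in Hmgn3 mutants and over all tested probes, for every spleen array of the 3 lines by the replicate number of the labels. In the Hmgn3 line the falls step from 0.14 in wild type 1 to -0.17 in wild type 4 and on to -0.42 in mutant 1, and the same probes step in the same sense in the Hmgn1 and Hmgn5 lines.

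When the arrays were numbered 1 to 8, wild types 1 to 4 and mutants 5 to 8, and this number was fitted as a covariate, 2 probes passed (0.0108%), both of Hmgn3 (-1.58, adjusted p = 0.00604, and -1.92, adjusted p = 0.0013). That numbering is not in the labels, and it moves closely with genotype, which raised the median SE of the 391 probes from 0.13 to 0.24. Their median size was then 0.22, 346 kept their direction and 45 turned. H2-Ab1 was at 0.42, Anxa6 at 0.57, Marco at 0.46 and Ppp1cb at -0.88 in that fit, none of them passing. The medians of the antigen presentation and glucocorticoid-induced lists turned to -0.035 and -0.12. Stap1 was at -0.10, Fscn1 at -0.03, Hnrnpk at 0.11, Eef2 at 0.12 and Lyz2 at 0.28. Position, date or order of handling of the arrays was not used here, so what the number stands for was not tested. The mouse numbers in the titles tended to fall along the replicate number in both groups and to be lower in mutants. Whether the values follow the mouse numbers was not tested.

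Spleens of the other lines share no mice with the Hmgn3 line, and most of its changes had a counterpart there. Of the 237 probes that fell, 220 (92.8%) were also lower in mutants of both other lines, against 30.6% of all probes. Of the 154 that rose, 134 (87%) were higher in both, against 33.2% of all probes. In the Hmgn1 line 116 of the 391 passed in the same direction, which is 29.7% of the 391 and 20.3% of the 572 that passed there (3.09% of all probes). In the Hmgn5 line 46 did, which is 11.8% of the 391 and 27.5% of 167 (0.902% of all probes). In neither line did a probe of the 391 pass in the opposite direction. Across the 18519 probes, which are not independent replicates, the changes of the Hmgn3 line correlated with those of the Hmgn1 line at r = 0.595 and with those of the Hmgn5 line at r = 0.513. With the arrays numbered 1 to 8 as a covariate the same correlations were -0.149 and -0.0773.

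**Figure D5:**
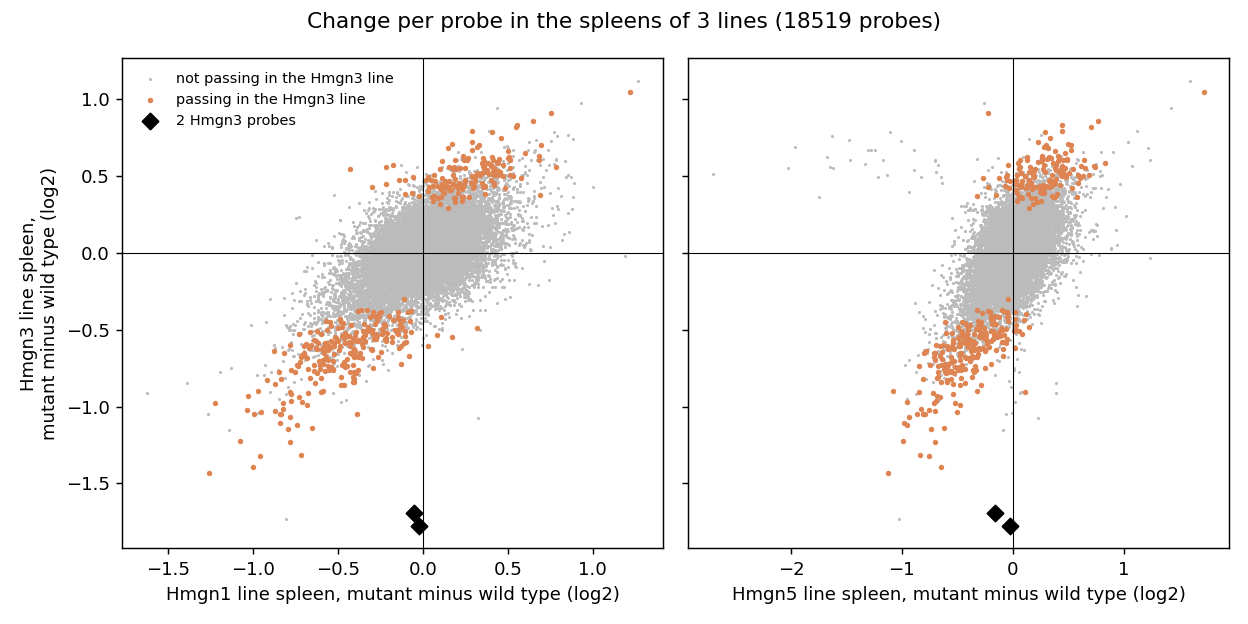
Change per probe (log2, labelled mutant minus wild type) in spleen of the Hmgn3 line, on the vertical axis, against the Hmgn1 line (left) and the Hmgn5 line (right), for 18519 probes, with the 391 that passed in the Hmgn3 line in orange and the Hmgn3 probes as diamonds. Most orange points lie in the lower left and upper right, along the trend of all probes (r = 0.595 and 0.513), while the Hmgn3 probes lie near 0 in the other lines and at -1.78 and -1.70 here.

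In all 3 lines 24 probes passed in the same direction, 16 lower and 8 higher. Ppp1cb changed by -1.12 in the Hmgn3 line, -0.74 in the Hmgn1 line and -0.95 in the Hmgn5 line. Cxcl13 changed by -0.90, -0.97 and -1.08 in that order. Fcrl1, an Fc receptor-like gene of B cells, changed by -0.82, -0.83 and -0.81, and Gng10, a G protein gamma subunit gene, by -0.64, -0.87 and -0.78. Probe ILMN_1234521 of Ndufs4, a subunit of respiratory complex I, and probe ILMN_2699167 of Etfa, an electron transfer flavoprotein, fell in each line too. Their changes in the Hmgn3 line were -0.45 and -0.67. Other Ndufs4 probes were at -0.19, -0.05 and 0.12 in the Hmgn3 line and did not pass. Among the rises were Cnp, a phosphodiesterase gene (0.56, 0.78 and 0.74), and probe ILMN_2622163 of Gart, an enzyme of purine synthesis (0.61, 0.45 and 0.49). A brighter Gart probe, ILMN_1225226, was at -0.08, -0.20 and -0.34. Pex6, of peroxisome assembly, was at 0.52, 0.45 and 0.46, and the dim Actb probe ILMN_2588055 at 1.05, 1.22 and 1.72.

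Tested directly, only the Hmgn3 probes passed for a difference between the Hmgn3 line and either other line at the reported setting. Of 18519 probes 2 passed against the Hmgn1 line (0.0108%), with 977 at an unadjusted p under 0.05, and 2 against the Hmgn5 line (0.0108%), with 888. The genes next in line against the Hmgn1 line were Lpcat1, an enzyme of phospholipid remodelling (-0.21 in the Hmgn3 line and 0.68 in the Hmgn1 line, adjusted p = 0.0616), and Abcc3, an organic anion exporter (0.55 and -0.43, adjusted p = 0.0854). Marco, at 0.57 in the Hmgn3 line, was at -0.17 and -0.04 in the other lines, and the differences did not pass (adjusted p = 0.31 and 0.957). H2-Ab1, at 0.42, was at 0.11 and 0.17 (adjusted p of the differences 0.905 and 0.999).

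In the other tissues of the same mice few probes passed. Thymus, brain and liver gave 2, 2 and 0 passing probes by limma, the Hmgn3 probes in thymus and brain, with 1148, 2046 and 765 at an unadjusted p under 0.05. Over the probes that fell in spleen, the median change was -0.61 in spleen, -0.13 in thymus, -0.15 in brain and 0.03 in liver. Over those that rose it was 0.50 in spleen, 0.05 in thymus, 0.12 in brain and 0.01 in liver. The medians of all probes were -0.012 in thymus, -0.0162 in brain and 0.000805 in liver. These probes were chosen for passing in spleen, which by itself makes their spleen changes larger than those elsewhere. Spleen and thymus came from the same mice. The difference between their changes, fitted in limma with the mouse as a random block (correlation 0.0268), passed on 0 of 16649 probes, with 1762 at an unadjusted p under 0.05 (10.6%). The smallest p was that of a probe of Gnas, the stimulatory G protein alpha subunit gene, at -0.51 in spleen and 0.57 in thymus (adjusted p = 0.138). Next were Mospd3 at 0.48 and -0.34 and Abcg1, a sterol exporter gene, at 0.54 and -0.30, at the same adjusted p.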

How the data were processed

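Total RNA was extracted with Trizol, cleaned with RNeasy and labelled as biotin cRNA with MessageAmp, per the labels' protocols. The program was GenomeStudio 2011.1, per the submitters' processing notes. The authors deposited linear intensity values that had been background-subtracted and normalized, as values below 0 (23.3% to 26% per spleen array) and shared quantiles within a line show. The method of normalization was not stated in the labels or file headers used here. Upper quartiles of 29.1, 48.2 and 26.5 in the Hmgn3, Hmgn1 and Hmgn5 lines showed that lines were normalized separately, so levels were compared only within a line. A raw table whose 188 columns match no sample label was not used.

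Each deposited intensity below 0 was replaced by 0, and log2 of the intensity plus 16 was used. Probes were tested when above 1.64 times the noise (root mean square of negative values) on 3 or more of 24 spleen arrays. The 6 spleen groups of 3 lines were fitted together with limma 3.58.1 (R 4.3.3) (18 residual degrees of freedom, 6 with the 8 arrays alone), two-sided, with Benjamini-Hochberg adjustment at 0.05. The scripts were tested on simulated data. Groups came from the labels, and wild types were assigned to lines by mouse number, with 1 mouse of the Hmgn5 line placed by elimination. No arrays were duplicates. The platform table gave 23978 probes 1 symbol and 1719 none, and 23962 matched RefSeq genes of GRCm38.p6.

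The members and gene lists were chosen with earlier results of these data known. Lists were described with 1 probe per gene, the brightest, without a set test, and those without a value in the text (endothelial, megakaryocyte, skeletal muscle and thymocyte markers) gave 0 passing genes. Named genes were the HMGN genes, the 10 largest rises and falls, genes that passed with the 8 arrays alone, up to 3 passing members of each list, neighbours of Hmgn3, the 5 smallest p of each difference, and every probe of a leading gene. Histone genes, brighter probes, genes that passed in all lines or with each array left out, and further members of a list whose count is given were chosen after their values were seen. Same-numbered mutants and wild types deviated together with correlations of 0.0054, 0.215, 0.0334 and 0.0724, so the numbers were not taken as pairs. Alternatives were other offsets, filters, scalings, spreads and number terms, and leaving out each array.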

Additional observations from a re-analysis of the deposited data

Results flagged for a closer look

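Single arrays stood apart from the other 3 of their group in 8 of 192 groups looked at, and chance flags about 1 in 20 groups. The 192 include groups with an array below noise, which could not be flagged, so the share flagged is understated. Ltbp4 read 270 in mutant 1 and 361 to 377 in the other mutants. The mesothelial genes Upk3b and Upk1b were also low in mutant 1, at 79.1 against 135 to 139 and 7.51 against 21.1 to 24.5, while the hepatocyte gene Apoa2 was high there, at 25 against 6.76 to 7.1. The acinar gene Cela1 read 1040 in mutant 2 against 66.1 to 89.7. Clk2, a splicing kinase gene, read 62.7 in mutant 4 against 89 to 94. Among wild types, Siglech of plasmacytoid dendritic cells read 47.6 in wild type 3 against 34.3 to 35.5, and Stab2 of sinus endothelium 87.3 in wild type 1 against 58 to 60.1.

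The Hmgn3 probes were flagged because their change differed between lines in limma. The difference was -1.76 on ILMN_2644719 and -1.65 on ILMN_1247704 against the Hmgn1 line, and -1.75 and -1.54 against the Hmgn5 line.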

How the results depend on the processing

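The fall of the Hmgn3 probe ILMN_2644719 passed under all 20 alternatives. The 391 probes of the spleen comparison became 41 with a floor of 1 before log2, 260 with an offset of 64, 150 without a filter on dim probes, 5 with the 8 arrays alone, 2 with the arrays numbered 1 to 8 as a covariate, and 8 to 717 with 1 array left out. The lowest was without wild type 1 and the highest without mutant 1. With the replicate number as a block the count was 600, which held 346 of the 391; same-numbered arrays did not deviate together in every pair (1 of 4 wild types correlated best with its own number), so the block was not taken as a pairing. Against the Hmgn1 line 12 probes passed with a floor of 1 and 1 with the covariate, in place of 2, and 2 to 3 with 1 array left out. Against the Hmgn5 line 0 passed with the covariate, and 2 to 3 with 1 array left out. Between spleen and thymus 1 passed with the floor and 2 with the larger offset, and 0 with any array left out. The slope on the number passed on 1 probe with an intensity trend and robust spread, and on 0 with any array left out. Under the covariate 7 named probes that had passed turned direction: Actb ILMN_1377923 to -0.0548, ILMN_2588055 to -0.15 and ILMN_2617433 to 0.0503, Eef2 to 0.12, Fscn1 to -0.0283, Hnrnpk to 0.11 and Lyz2 to 0.28. The cause of these changes was not tested. Residual degrees of freedom, 18 in place of 6, are part of the difference between 24 and 8 arrays by construction. Dim probes have only bounds: 1 probe of Aptx was at least 1.15-fold, of Esco1 at least 1.29-fold and of Pik3r1 at least 1.2-fold lower in mutants, and ILMN_2747031 at least 1.32-fold higher. The bright Pik3r1 probes ILMN_2473531 and ILMN_3114641 were at 0.24 and 0.15 and did not pass.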
